A study of Arabidopsis thaliana with 18 samples.

Results

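The comparison set monosomal RNA, the RNA that sediments with single ribosomes, against total RNA of Arabidopsis seedlings. Its members are the 6 arrays that the labels name as monosomal or total RNA of seedlings at 72 h, 3 per fraction, out of 18 arrays in the series. All 27827 gene rows of the value table were used. The plants were Columbia-0 (Col-0), with no transgene or mutation named, sampled as seedlings after 72 h of imbibition. Each replicate was a bulk of 8 plants from a randomized complete block layout. The treatment text of every sample speaks of dry seeds, whereas tissue and protocol labels of these arrays give imbibed seedlings. The purification described covers total and polysomal RNA, and the step that isolated single ribosomes is not given in the sources used here. The other groups used were monosomal and total RNA of dry Col-0 seeds and polysomal RNA of the same stage of seedlings, also with 3 arrays each.

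A messenger RNA is loaded with ribosomes in proportion to how often translation starts on it and how long its coding sequence is. Messages with short coding sequences, or with rare initiation, are therefore found with a single ribosome more than long, well-initiated ones, which sit in polysomes. Monosomal fractions can also hold messages on a single ribosomal subunit, and RNAs bound in other particles of similar size. Mitochondria and chloroplasts translate their own transcripts on their own ribosomes, which sediment differently from those of the cytosol.

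Values are the authors' RMA (robust multi-array average) log2 intensities, so a difference of 1 is a 2-fold ratio. They had been scaled between arrays and give a transcript's share of its fraction, not its amount. Array medians were 3.44 to 3.48 for monosomal and 3.62 to 3.65 for total RNA. Across rows, which are not independent replicates, replicate arrays correlated with r of 0.957 to 0.963 within monosomal and 0.980 to 0.981 within total RNA, and with r of 0.912 to 0.930 between fractions. In the brighter rows, the 13913 whose mean over the 6 arrays lay above the median of 3.53, the median SD between replicates was 0.29 for monosomal and 0.19 for total RNA. The stage label was checked on marker genes. The light-harvesting gene CAB1 (AT1G29930) had a mean of 10.79 in seedling and 3.01 in dry seed total RNA, and the cruciferin storage protein gene CRA1 (AT5G44120) had 3.53 and 11.71. In such bulk samples the number of cells of a type and the RNA per cell cannot be told apart.

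Single-ribosome RNA differed from total RNA over a large part of the transcriptome, and its deepest differences were losses. A row was called when its limma p, adjusted by Benjamini-Hochberg over all rows, was under 0.05. By this test 4790 rows (17.2%) were higher and 4048 (14.5%) lower in monosomal RNA. A difference of 2-fold or more was reached by 1377 higher and 2016 lower rows. The lowest difference was −6.01 and the highest 2.80, with a median over all rows of 0.11. The 3 values of each fraction did not overlap in 44.4% of rows. Of the 6957 rows with the lowest level, 1868 were higher and 132 lower, with a median of 0.42, and the lower quartile of the arrays was 2.22 to 2.34 for monosomal against 2.02 to 2.09 for total RNA. What raised these faint rows was not tested. Among the brighter rows the balance was the other way, with 13.9% higher and 21.0% lower.

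Among brighter protein-coding genes, the row with the highest difference was AT5G49560, which has no symbol in the reference table. Its values were 5.60, 4.27 and 5.46 in monosomal and 2.31, 2.50 and 2.10 in total RNA. Every monosomal value lay above every total value, and the difference was 2.80 (SE 0.33, adjusted p = 6.09e-06), a 6.99-fold ratio. AT5G04080 had 5.45, 5.25 and 5.38 against 3.05, 2.64 and 2.68, again without overlap and with little spread within a fraction (difference 2.57, SE 0.21, adjusted p = 6.58e-08). AT3G50850, AT5G37940 and AT4G22217 followed with differences of 2.53, 2.47 and 2.32 and adjusted p of 9.02e-05, 0.000207 and 2.39e-05. In the other direction AT2G11778 had 1.23, 1.52 and 1.75 in monosomal and 7.40, 7.53 and 7.60 in total RNA. All 3 monosomal arrays lay in the faint range, far below the total arrays (difference −6.01, SE 0.24, adjusted p = 8.59e-12). AT4G08370 had a difference of −5.73 (SE 0.41, adjusted p = 1.27e-08), AT2G01023 one of −5.16, AT4G09649 one of −5.01, AT1G34910 one of −4.96 and AT2G11570 one of −4.85, all with values that did not overlap.

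**Figure D1:**
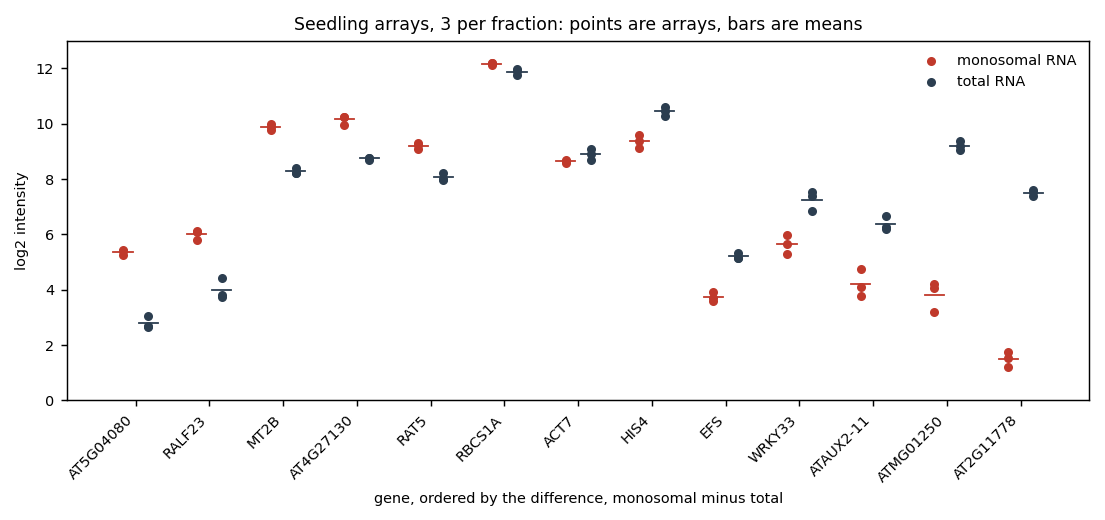
Log2 intensity of 13 genes on the 3 monosomal (red) and 3 total RNA (dark) seedling arrays, ordered by difference; points are arrays and bars are means. RBCS1A and ACT7 were not called; RALF23 differs by 2.02 and AT2G11778 by −6.01.

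Most transcripts of the mitochondrial genome were lower with single ribosomes. Of 92 mitochondria-encoded rows 62 were called lower (67.4%) and 4 higher (4.35%), beside 14.5% and 17.2% over all rows. Their median difference was −1.56, and 51 of the 62 were lower by at least 2-fold. Among the 92, 37 rows share their values with another row, so they are not independent. The list's median level was 6.61, 6.95 and 6.32 on the monosomal arrays and 8.45, 8.36 and 8.10 on the total arrays. The rows did not move as one block, since their differences ran from −5.63 to 1.49. ATMG01250 had 4.20, 4.05 and 3.21 in monosomal and 9.19, 9.36 and 9.06 in total RNA (difference −5.38, SE 0.32, adjusted p = 8.55e-10). ATMG00820, ATMG00860 and ATMG00880 had differences of −5.26, −5.16 and −5.09 with adjusted p of 8.22e-10, 7.79e-10 and 4.56e-08. Their monosomal values, between 1.73 and 4.42, all lay below their total values, which began at 6.90. Rows above 0 included ATMG01000, with 1.49, and ATMG01090, ATMG00040 and ATMG00990, with 0.63, 0.60 and 0.59, named here after their values were seen. The 4 higher calls became 2 without monosomal replicate 2, total replicate 2 or total replicate 3, while the lower calls stayed between 59 and 64 when any single array was left out.

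A stretch of chromosome 2 carries a large copy of mitochondrial DNA, and its rows followed the mitochondrial ones. Between AT2G07664 and AT2G07826 there were 97 rows, with a median of −1.23. Of these rows 65 were called lower (67%) and 7 higher (7.22%), beside 14.5% and 17.2% over all rows. The 64 rows whose values matched no mitochondria-encoded row held 41 lower (64.1%) and 7 higher (10.9%), with a median of −1.18. Of the 97, 33 had values identical on every array to a mitochondria-encoded row, so the locus they measure cannot be told apart. One of them, AT2G07677, classed as a transcribed pseudogene, had 4.66, 4.46 and 2.93 in monosomal against 9.68, 9.76 and 9.50 in total RNA (difference −5.63, SE 0.32, adjusted p = 4.76e-10). Pseudogenes (10 of 17 lower, 1 higher) and transcribed pseudogenes (21 of 32 lower, 3 higher) held many rows of this stretch. The 3 higher transcribed pseudogenes became 1 without total replicate 3. The 4 pseudogenes with the largest differences, AT2G07682, AT2G07686, AT2G07683 and AT2G07697, at −4.81, −4.46, −3.88 and −3.72, and the transcribed ones AT2G07809, AT2G07813 and AT2G07664, at −4.91, −4.03 and −3.93, all lie in it.

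Chloroplast-encoded rows had a median difference of −0.21. Of 15 rows 4 were lower (26.7%) and 1 higher (6.67%), beside 14.5% and 17.2% over all rows and 21.0% and 13.9% among the brighter rows. Among the 15, 12 rows share their values with another row, so they are not independent. ATCG00230, whose values no other row shares, had 6.60, 6.80 and 6.58 in monosomal and 7.93, 7.94 and 7.53 in total RNA. The fractions did not overlap and the difference was −1.14 (SE 0.21, adjusted p = 0.000515). The lowest was ATCG00160, at −2.33, and the single higher one ATCG00020, at 0.55, a call lost without total replicate 3; both were named after their values were seen.

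**Figure D2:**
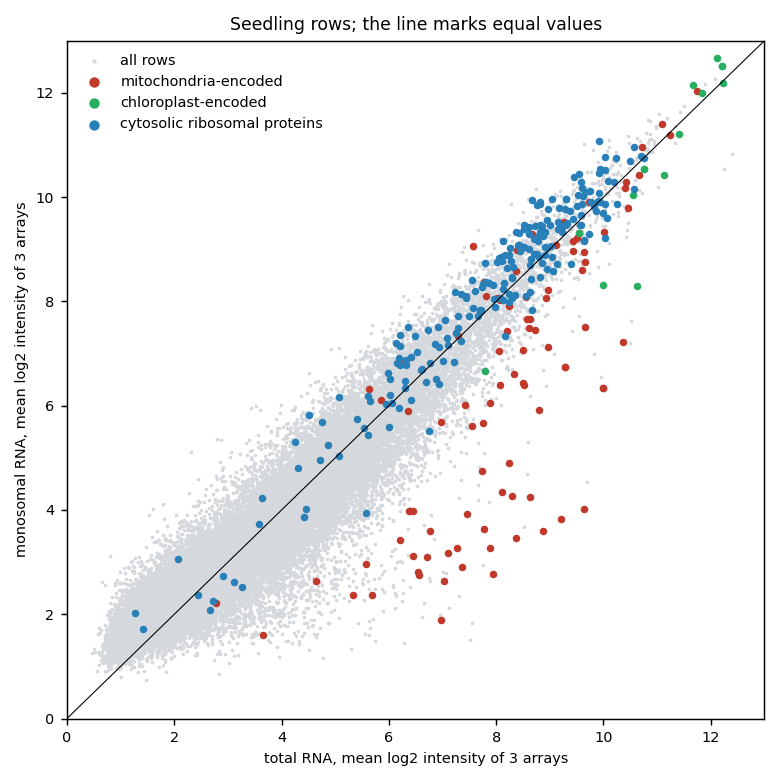
Mean log2 intensity in total (x axis) and monosomal RNA (y axis) of seedlings, 3 arrays each, for all rows (grey) and 3 groups; the line marks equal values. Mitochondria-encoded rows (red) reach 5.63 below the line while cytosolic ribosomal protein rows (blue) lie mostly just above it; chloroplast-encoded rows are green.

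Beyond the organelles, a second set of rows was far lower in monosomal than in total RNA. In all, 101 called rows were at least 8-fold lower, of which 49 were mitochondria-encoded or in the chromosome 2 stretch. The other 52 had a median level of 2.30 in monosomal and 6.08 in total RNA. Single rows ranged from 1.17 to 4.53 in monosomal and from 4.51 to 9.69 in total RNA. The median of the 52 was 1.76 in polysomal RNA, and 2.51 in total RNA of dry seeds. By the median, though not for every row, they were high in seedling total RNA alone of these 4 groups. Of the 52, 44 matched the reference gene table, and 0 of those had a symbol other than the locus, compared with 46.1% of matched brighter rows. This set was formed after the values were seen and is a description.

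Transcripts for proteins of the cytosolic ribosome were more often higher than lower with single ribosomes. Of 88 measured 40S subunit genes 27 were higher and 1 lower, with a median of 0.35, and of 125 large-subunit (60S) genes 43 were higher and 6 lower, with a median of 0.23. The share higher, 30.7% and 34.4%, stands beside 17.2% over all rows, and 31.0% and 35.8% beside 13.9% among the brighter rows. AT3G44010, a listed 40S locus, had 11.08, 10.93 and 11.24 in monosomal and 9.87, 9.88 and 10.01 in total RNA. Its fractions were separate by nearly 1 unit, and the difference was 1.16 (SE 0.18, adjusted p = 0.000128). Next on the 40S list, AT3G43980 and AT5G18380, had differences of 1.15 and 1.09 (adjusted p of 0.00142 and 0.000516). On the large-subunit list AT3G56020 had 9.82, 9.77 and 10.22 against 8.51, 8.69 and 8.78, without overlap (difference 1.28, SE 0.19, adjusted p = 9.91e-05). AT3G22230 and AT2G36170, which the reference table names RPL40A, had 1.15 and 1.07 (adjusted p of 0.000292 and 0.00447).

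Single copies went against their lists. The 40S-list locus AT1G23410 had 3.43, 3.57 and 4.82 in monosomal and 5.06, 5.53 and 6.12 in total RNA, with every monosomal value below the total ones (difference −1.63, SE 0.34, adjusted p = 0.00154). The 60S-list locus AT3G13580 had 5.50, 5.55 and 5.49 against 6.75, 6.49 and 7.01 (difference −1.23, SE 0.23, adjusted p = 0.000636). RPS6 (AT4G31700), a 40S protein phosphorylated in growth signalling, had 9.84, 9.91 and 9.88 against 9.50, 9.48 and 9.85, so that its fractions overlapped, and it was not called (difference 0.27, SE 0.17, adjusted p = 0.221), except with each array centred on its median (0.44, adjusted p = 0.0413). Ribosomal protein genes come as families of near-identical copies, and how probes were assigned to copies is not given in the sources used here, so values of single copies are uncertain. Without total replicate 1 the calls fell to 17 higher on the 40S list and 24 on the 60S list, and without total replicate 2 to 28 on the 60S list.

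Translation factors moved in both directions. Of 44 measured, 11 were higher and 6 lower (13.6%), with a median of 0.19, beside 13.9% higher and 21.0% lower among the brighter rows, where all 44 lay. The largest rise was that of AT4G27130, a listed factor locus, with 10.25, 10.26 and 9.95 in monosomal and 8.70, 8.77 and 8.77 in total RNA. Its fractions were more than 1 unit apart (difference 1.41, SE 0.16, adjusted p = 3.99e-06). Other higher members, named after their values were seen, were LOS1, an elongation factor that moves the ribosome along the message, with 0.78, TCTP, the translationally controlled tumour protein, with 0.77, and ELF5A-3, of the factor that relieves stalled ribosomes, with 0.72. The listed locus AT1G07920 had 7.29, 7.35 and 7.30 against 6.56, 6.74 and 6.64 (difference 0.66, SE 0.15, adjusted p = 0.00318). Among the lower members was EIF2 ALPHA (AT5G05470), a subunit of the factor that brings the initiator transfer RNA, with 4.93, 3.87 and 4.52 against 5.64, 5.65 and 5.81. Every monosomal value lay below the total ones (difference −1.26, SE 0.23, adjusted p = 0.000577), and the listed locus AT2G40290 had a difference of −0.97 (adjusted p = 0.00336). AT1G76810, a further listed locus, had 4.76, 4.57 and 4.43 against 5.65, 6.51 and 5.72 (difference −1.37, SE 0.26, adjusted p = 0.000741). EIF3C, an initiation factor subunit, had −0.62 and AT5G12110 had −0.96, while EIF3G1, of the same initiation factor as EIF3C, was higher by 0.60; these were also named after their values were seen.

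Many short secreted peptide genes were higher with single ribosomes. Of 37 measured, 15 were higher (40.5%, beside 17.2% over all rows) and 1 lower, with a median of 0.61. Among the 27 brighter ones 11 were higher (40.7%, beside 13.9% of brighter rows). RALF23 (AT3G16570), a rapid alkalinization factor that signals through a receptor kinase at the cell wall, had 5.81, 6.09 and 6.14 in monosomal and 3.74, 4.43 and 3.81 in total RNA. The fractions lay well apart (difference 2.02, SE 0.27, adjusted p = 3.09e-05). The arabinogalactan peptide gene AGP41 (AT5G24105) had 4.97, 5.03 and 5.26 against 3.88, 3.37 and 4.23 (difference 1.26, SE 0.24, adjusted p = 0.000843). The precursors of phytosulfokine, a sulfated growth peptide, included PSK4 (AT3G49780) and PSK5 (AT5G65870), with differences of 1.24 and 1.18 (adjusted p of 0.000581 and 0.00226); their total values, 1.59 to 2.35, lay in the faint range. PSK3 was the lower member, with −0.86, a call lost when monosomal replicate 1, monosomal replicate 2, total replicate 1 or total replicate 3 was left out.

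Other very small proteins had fewer calls. MT2B (AT5G02380), a metallothionein, a small cysteine-rich metal-binding protein, had 9.98, 9.87 and 9.78 against 8.21, 8.40 and 8.22. Every monosomal value exceeded every total value by more than 1 unit (difference 1.60, SE 0.19, adjusted p = 6.53e-06). MT2A (AT3G09390) was also higher, by 0.56 (adjusted p = 0.0126), but had 0.31 with cyclic loess and 0.30 with quantile normalization (adjusted p of 0.144 and 0.155), which ended the call. RCI2A (AT3G05880), a cold-inducible membrane peptide, was lower by −0.54 (adjusted p = 0.0318). The call on RCI2A was lost without any 1 of the 3 monosomal arrays, total replicate 1 or total replicate 2. It was also lost with median or 75th percentile centring (adjusted p of 0.129 and 0.0853) and with the comparison's arrays alone (adjusted p = 0.056). Of 7 metallothionein and membrane peptide genes measured, 2 were higher (28.6%) and 1 lower (14.3%), beside 17.2% and 14.5% over all rows. Among 26 small nuclear-encoded mitochondrial proteins, parts of respiratory complexes and the import pore, 6 were higher (23.1%, beside 17.2% over all rows) and 1 lower, with a median of 0.34. The listed loci AT5G05370, AT5G25450 and AT3G62400 had 1.28, 0.97 and 0.86 (adjusted p of 0.00476, 0.00653 and 0.00259), and AT5G61310 had −0.74 (adjusted p = 0.0256). The call on AT5G61310 was lost without monosomal replicate 2, total replicate 2 or total replicate 3. It was also lost with median or 75th percentile centring, cyclic loess or quantile normalization (adjusted p of 0.0542 to 0.087). A fit of the comparison's arrays alone lost it too (adjusted p = 0.0577).

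Genes for very large proteins lay at the opposite end. Of 24 measured, all among the brighter rows, 11 were lower (45.8%) and 0 higher, beside 21.0% and 13.9% of brighter rows. The median difference was −0.42. The list's median level was 5.10, 5.14 and 4.78 on monosomal arrays and 5.68, 5.77 and 5.74 on total arrays. EFS (AT1G77300), a histone methyltransferase that delays flowering, had 3.92, 3.60 and 3.72 against 5.33, 5.14 and 5.14. All monosomal values were more than 1 unit below the total ones (difference −1.46, SE 0.21, adjusted p = 4.98e-05). SYD (AT2G28290), a chromatin-remodelling ATPase, had 4.56, 4.36 and 4.30 against 5.93, 5.85 and 5.78 (difference −1.45, SE 0.25, adjusted p = 0.000298). GSL10 (AT3G07160), a callose synthase-like enzyme, and PKL (AT2G25170), the remodeller PICKLE that represses embryonic genes in seedlings, had −1.13 and −1.12 (adjusted p of 0.00117 and 0.00267). The 11 also held DCL1, which cuts microRNA precursors, with −0.88, and NRPB1, the largest subunit of RNA polymerase II, with −1.03. Between 8 and 11 of the list were lower when any single array was left out.

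The same order appeared across protein-coding genes when they were arranged by gene span, the length of the gene on the reference assembly with introns, which is not the length of the message or the protein. Among 862 brighter genes with a span under 1000 bases, 24.4% were higher and 18.1% lower, with a median of 0.18. From 1000 to under 2000 bases the shares were 20.2% and 17.3%, and from 2000 to under 3000 bases 13.5% and 20.1%. They were 9.18% and 22.4% from 3000 to under 4000 bases, and 5.23% and 24.1% from 4000 to under 6000 bases. Among 624 genes of 6000 bases and over, 2.72% were higher and 30.4% lower, with a median of −0.36. Across all 13454 genes of this kind the rank correlation of span with the difference was −0.18, a weak description over genes that share the same 6 arrays. The 17 higher genes of the longest bin became 9 to 11 without total replicate 1, monosomal replicate 1 or monosomal replicate 2, and the 78 of the bin before it became 46 without total replicate 2.

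**Figure D3:**
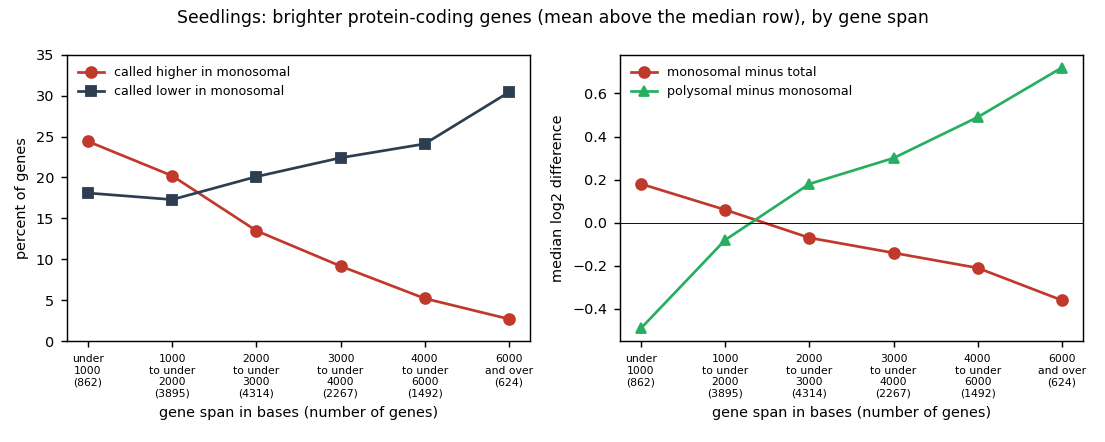
Brighter protein-coding genes, by gene span in bases with the number of genes (x axes). Left, the percent called higher (red) fell from 24.4 to 2.72 while the percent called lower (dark) went from 18.1 to 30.4; right, the median log2 difference of monosomal minus total (red) went from 0.18 to −0.36 and that of polysomal minus monosomal (green) from −0.49 to 0.72.

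Among regulators of auxin response, several Aux/IAA repressors, short-lived proteins that hold auxin response factors inactive until auxin triggers their breakdown, were lower. Of 23 measured 6 were lower (26.1%) and 3 higher, with a median of −0.25, beside 14.5% lower over all rows; 4 of the 16 brighter ones were lower, near the 21.0% of brighter rows. ATAUX2-11 (AT5G43700, also IAA4) had 4.11, 3.77 and 4.76 in monosomal and 6.28, 6.18 and 6.67 in total RNA. The total arrays lay more than 1 unit above the monosomal ones (difference −2.16, SE 0.30, adjusted p = 4.29e-05). SHY2 (AT1G04240, also IAA3) had 3.47, 3.59 and 3.67 against 4.71, 5.53 and 5.50 (difference −1.67, SE 0.26, adjusted p = 0.000116), and PAP2 (AT4G29080, also IAA27) a difference of −1.53 (adjusted p = 3.86e-05). IAA8 (AT2G22670) was higher in every monosomal array, with 7.73, 7.62 and 7.47 against 6.43, 6.78 and 6.61 (difference 1.002, SE 0.17, adjusted p = 0.000294). The 3 higher calls fell to 1 without monosomal replicate 3 or total replicate 2. PIN7 (AT1G23080), an auxin efflux carrier, was lower by −1.33 (adjusted p = 0.00307).

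Stress and hormone response lists were mixed. Of 19 rapid stress-response genes 6 were higher (31.6%, beside 17.2% over all rows) and 1 lower, with a median of 0.19. Among the 10 brighter ones 2 were higher and 1 lower, beside 13.9% and 21.0% of brighter rows. The lower one, WRKY33 (AT2G38470), a transcription factor of pathogen defence, had 5.97, 5.30 and 5.65 against 7.54, 6.86 and 7.37, without overlap (difference −1.62, SE 0.24, adjusted p = 8.29e-05). The cold-response activators CBF1 (AT4G25490) and DREB1A (AT4G25480) had 1.24 and 0.79 (adjusted p of 0.0001 and 0.0115), and JAZ8 (AT1G30135), a jasmonate response repressor, had 1.004 (adjusted p = 0.0427); their total values, 0.73 to 1.64, lay in the faint range. DREB1A was not called with cyclic loess (0.36, adjusted p = 0.282) or quantile normalization (0.41, adjusted p = 0.216), nor JAZ8 with quantile normalization (0.62, adjusted p = 0.196) or without any 1 array other than monosomal replicate 3. The 6 higher calls fell to 2 without monosomal replicate 1 or total replicate 2 and to 3 without total replicate 3. Of 18 genes of abscisic acid (ABA) and cold response 3 were higher (16.7%) and 5 lower (27.8%), beside 17.2% and 14.5% over all rows. Among the 12 brighter ones 2 were higher and 3 lower. KIN2 (AT5G15970), a cold-induced small protein, had 8.59, 8.54 and 8.81 against 7.70, 7.57 and 8.04, every monosomal value above the total ones (difference 0.88, SE 0.19, adjusted p = 0.0024). KIN1 (AT5G15960), its neighbour and close relative, had 0.84 (adjusted p = 0.0153), while the phosphatase genes AHG1 (AT5G51760) and HAI1 (AT5G59220), which restrain ABA signalling, had −1.34 and −1.12 (adjusted p of 0.034 and 0.000568). AHG1 was not called without any 1 of the 6 arrays (adjusted p of 0.0551 to 0.0943), nor KIN1 without monosomal replicate 2 (0.57, adjusted p = 0.0881). The 5 lower calls became 1 to 3 when any single array other than monosomal replicate 3 was left out.

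Of 18 heat shock genes 4 were lower (22.2%, beside 14.5% over all rows) and 1 higher, with a median of −0.32. Among the 8 brighter ones 1 was lower and 1 higher. HSC70-1 (AT5G02500), the constitutive cytosolic HSP70 chaperone, had 9.81, 9.73 and 9.89 against 9.39, 9.11 and 9.15, without overlap (difference 0.60, SE 0.16, adjusted p = 0.0096). HSP17.6II (AT5G12020), a small heat shock protein gene, had 1.57, 1.57 and 3.98 against 4.41, 3.81 and 4.38, so that monosomal replicate 3 lay within the total range (difference −1.83, SE 0.54, adjusted p = 0.0152). HSP23.6-MITO (AT4G25200) and the listed loci AT1G53540 and AT1G54050 had −1.26, −1.12 and −0.62 (adjusted p of 0.0487, 0.00186 and 0.0427). The call on HSP23.6-MITO was lost without any 1 of the 6 arrays and under each of the 4 rescalings (adjusted p of 0.0519 to 0.168), and that on AT1G54050 under the same rescalings and without monosomal replicate 1 or 3 or total replicate 1 or 2. Lower calls fell to 2 without monosomal replicate 1 or 3 or total replicate 1 or 2. Of 13 core hypoxia genes 2 were lower (15.4%, near the 14.5% over all rows). They were ETR2 (AT3G23150), an ethylene receptor, with −0.70 and AT3G10040, which the reference table also names HRA1, with −0.76 (adjusted p of 0.0319 and 0.031). Both calls were absent with each array centred on its median, where 0 were lower and 2 higher, and without monosomal replicate 3 or total replicate 1.

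Genes with upstream open reading frames, which divert ribosomes before the main coding sequence, did not stand apart as a group. Of 22 measured 4 were higher and 2 lower, and the median was −0.02, with 11 of the rows sharing their values with another row. VTC2 (AT4G26850), an enzyme of vitamin C synthesis, had 9.44, 9.44 and 9.20 against 8.45, 8.53 and 8.35, without overlap (difference 0.92, SE 0.17, adjusted p = 0.00074). HB-1 (AT3G01470), a homeodomain factor, had 0.92 and ETT (AT2G33860), an auxin response factor, 0.85, while bZIP2 (AT2G18160) had −0.88 (adjusted p of 0.00355, 0.0192 and 0.00956). The 4 higher calls became 2 without monosomal replicate 3 or total replicate 1, and the 2 lower ones became 0 or 1 without monosomal replicate 1, monosomal replicate 3, total replicate 1 or total replicate 3. Of 21 splicing regulators, all among the brighter rows, 3 were higher (14.3%) and 1 lower (4.76%), beside 13.9% and 21.0% of brighter rows. SCL33 (AT1G55310), GRP7 (AT2G21660), a clock-controlled RNA-binding protein, and PTB1 (AT3G01150) had 0.93, 0.82 and 0.71, and RS31 (AT3G61860), an arginine/serine-rich splicing factor, had −0.81 (adjusted p of 0.00245, 0.00374, 0.0247 and 0.00665). PTB1 was not called without monosomal replicate 2 (0.57, adjusted p = 0.0951), total replicate 1 (0.53, adjusted p = 0.122) or total replicate 2 (adjusted p = 0.0712).

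Core histone genes moved in both directions. Of 22 measured, all among the brighter rows, 7 were higher (31.8%, beside 13.9% of such rows) and 4 lower, with a median of 0.05. The share lower was near the 21.0% of brighter rows. RAT5 (AT5G54640), a histone H2A, had 9.29, 9.08 and 9.24 in monosomal and 7.97, 8.02 and 8.21 in total RNA (difference 1.14, SE 0.17, adjusted p = 0.000109). The listed histone loci AT5G59690 and AT1G07820 had 1.09 and 0.95 (adjusted p of 5.79e-05 and 0.00456). HIS4 (AT2G28740), a histone H4, had 9.14, 9.36 and 9.59 against 10.28, 10.45 and 10.61, all monosomal values below the total ones (difference −1.08, SE 0.25, adjusted p = 0.00364). The 4 lower calls became 2 without monosomal replicate 2 or total replicate 1 and 1 without monosomal replicate 3 or total replicate 3. These genes are near-identical copies too, with the same uncertainty.

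Cell division genes were more often lower. Of 19 measured 7 were lower (36.8%) and 3 higher (15.8%), beside 14.5% and 17.2% over all rows. Of the 14 brighter ones 7 were lower, beside 21.0% of all such rows. SYP111 (AT1G08560), the syntaxin KNOLLE of the forming cell plate, had 4.27, 4.99 and 4.79 against 5.72, 6.07 and 6.41. The fractions did not overlap (difference −1.38, SE 0.23, adjusted p = 0.000222). PCNA2 (AT2G29570), the sliding clamp of DNA replication, had 5.74, 6.29 and 5.84 against 7.04, 7.09 and 7.05 (difference −1.10, SE 0.26, adjusted p = 0.00395), and the mitotic cyclin CYCB2;3 (AT1G20610) a difference of −1.12 (adjusted p = 0.00522). CDC20.1 (AT4G33270), an activator of the anaphase-promoting complex, was higher, by 1.07 (adjusted p = 0.0245), a call lost without monosomal replicate 1 or total replicate 2. Higher calls fell to 0 without monosomal replicate 1 or total replicate 2 and to 1 without monosomal replicate 2, total replicate 1 or total replicate 3, while 6 or 7 stayed lower.

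Few nuclear photosynthesis genes were called. Of 56 measured 5 were higher (8.93%) and 3 lower (5.36%), beside 17.2% and 14.5% over all rows. Their median was 0.11, the same as over all rows. Among the 55 brighter ones 9.09% were higher and 5.45% lower, beside 13.9% and 21.0% of brighter rows. The median of these 55 was 0.10, beside −0.08 for brighter rows. RBCS1A (AT1G67090), the small subunit of Rubisco, had 12.20, 12.12 and 12.20 in monosomal and 11.91, 11.97 and 11.77 in total RNA. Its fractions did not overlap but it was not called (difference 0.29, SE 0.22, adjusted p = 0.325), and CAB1 had a difference of 0.43 (SE 0.40, adjusted p = 0.419). GAPB (AT1G42970), an enzyme of the Calvin cycle, was higher by 0.81 (adjusted p = 0.00553). PSBY (AT1G67740), of photosystem II, PRK (AT1G32060), phosphoribulokinase, and ATPD (AT4G09650), of the chloroplast ATP synthase, had −1.05, −0.95 and −0.82 (adjusted p of 0.00338, 0.0112 and 0.00343). PRK was not called without monosomal replicate 2 (−0.72, adjusted p = 0.0615) or total replicate 1 (adjusted p = 0.0537). Without any 1 array other than monosomal replicate 3 the higher calls were 1 to 3.

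Of 17 root markers 4 were higher (23.5%, beside 17.2% over all rows) and 0 lower by limma. The root hair expansins EXPA18 (AT1G62980) and EXPA7 (AT1G12560) had 1.23 and 0.86 (adjusted p of 0.0146 and 0.00598), and the call on EXPA18 was lost without monosomal replicate 3 (0.77, adjusted p = 0.0969). WOX5 (AT3G11260), of the root stem cell niche, had 1.74, 1.84 and 3.50 against 1.23, 1.08 and 1.11, values of the faint range with 1 array apart (difference 1.22, SE 0.32, adjusted p = 0.00739). WOX5 was not called with quantile normalization (0.86, adjusted p = 0.0741) or in a fit of the comparison's arrays alone (adjusted p = 0.0605).

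The water channel gene TIP2;3 (AT5G47450), of the vacuole membrane, had 5.001, 4.65 and 4.66 against 2.85, 3.06 and 2.78, with wide separation (difference 1.87, SE 0.25, adjusted p = 2.62e-05). EXPA10 (AT1G26770), a wall-loosening expansin, had 7.32, 7.13 and 7.33 against 5.99, 5.93 and 6.06 (difference 1.26, SE 0.22, adjusted p = 0.000336). The list of 41 membrane and wall genes held 4 higher (9.76%) and 3 lower (7.32%), beside 17.2% and 14.5% over all rows. Its median was 0.02, and its higher calls became 2 without monosomal replicate 1 or total replicate 1.

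Seed transcripts varied between the monosomal arrays. The median of the 22 seed storage, oil body and LEA (late embryogenesis abundant) genes was 4.86, 4.30 and 3.70 on monosomal replicates 1, 2 and 3 and 3.66, 3.71 and 3.72 on total arrays. CRA1 had 7.75, 6.38 and 3.85 in monosomal and 3.64, 3.24 and 3.71 in total RNA. Monosomal replicate 1 was the highest and replicate 3 barely exceeded the total arrays (difference 2.46, SE 0.74, adjusted p = 0.0171). Without monosomal replicate 1 its difference was 1.58 (adjusted p = 0.104), and it was also not called without monosomal replicate 2 or total replicate 2 (adjusted p of 0.0532 and 0.0541). RAB18 (AT5G66400), a dehydrin, had 6.88, 5.42 and 5.43 against 3.69, 4.04 and 4.88 (difference 1.71, SE 0.49, adjusted p = 0.0125), and its adjusted p was 0.0728 without monosomal replicate 1 and 0.0595 without total replicate 1. The LEA-list locus AT3G02480 had 6.02, 5.65 and 5.97 against 3.96, 4.16 and 5.06 (difference 1.48, SE 0.30, adjusted p = 0.00131), and M17 (AT2G41260) was lower by −1.21 (adjusted p = 0.0262). In all 3 of 22 were higher (13.6%) and 1 lower (4.55%), beside 17.2% and 14.5% over all rows. Without monosomal replicate 1 there was 1 higher. The lower call was lost without monosomal replicate 2, total replicate 1 or total replicate 2.

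**Figure D4:**
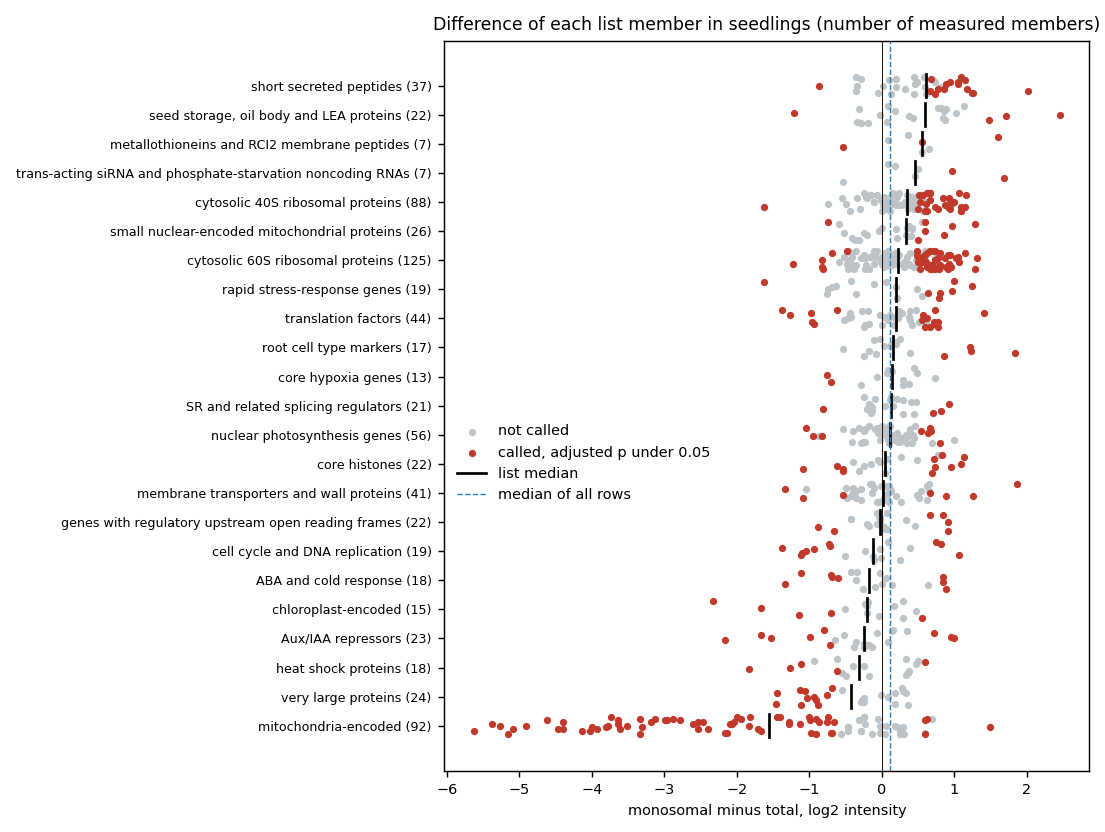
Log2 difference, monosomal minus total RNA of seedlings, of each measured member of 21 gene lists and the organelle-encoded rows (number of members in brackets), red where called; black bars are list medians and the dashed line is the median of all rows, 0.11. Medians run from 0.61 for short secreted peptides to −1.56 for mitochondria-encoded rows.

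Noncoding transcripts differed by kind. The 7 trans-acting siRNA precursors and phosphate-starvation RNAs held 2 higher (28.6%) and 0 lower, beside 17.2% and 14.5% over all rows. TAS3 (AT3G17185), the precursor of small RNAs that silence auxin response factors, had 5.64, 5.14 and 5.68 in monosomal and 3.87, 3.78 and 3.78 in total RNA. Every monosomal array lay above the total ones by more than 1 unit (difference 1.68, SE 0.22, adjusted p = 1.95e-05), and IPS1 (AT3G09922), a decoy of a phosphate-responsive microRNA, had 0.97 (adjusted p = 0.00725), but 0.64 with cyclic loess and 0.57 with quantile normalization (adjusted p of 0.0788 and 0.155), where it was not called. MicroRNA precursor rows were higher in 65 (37.4%) and lower in 7 (4.02%) of 174, beside 17.2% and 14.5% over all rows. However, their median level was 2.01 in monosomal and 1.44 in total RNA, the range in which faint rows as a whole were higher. Of the 14 brighter ones 2 were higher (14.3%) and 3 lower (21.4%), beside 13.9% and 21.0% of brighter rows. The 7 lower calls became 3 without monosomal replicate 1 or total replicate 3. MIR159a (AT1G73687), whose microRNA restrains MYB factors, had 4.66, 5.11 and 5.62 against 2.98, 3.24 and 3.997 (difference 1.72, SE 0.27, adjusted p = 0.000128), and MIR395b (AT1G26975), of sulfate starvation, a difference of 2.31 (adjusted p = 2.98e-05). MIR844 (AT2G23347) and MIR401 (AT4G08116) had −2.81 and −2.65 (adjusted p of 3.3e-06 and 0.000346).

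Small nuclear and nucleolar RNAs work in splicing and in the modification of ribosomal RNA, outside the cytosol. U1.5 (AT1G08115), a U1 spliceosomal RNA, had 5.95, 5.47 and 7.14 in monosomal and 8.51, 8.91 and 8.46 in total RNA. All 3 monosomal values were lower by more than 1 unit (difference −2.44, SE 0.39, adjusted p = 0.000146). U6acat (AT5G40395) had −1.10 (adjusted p = 0.00179), while U6-26 (AT3G13855) and U2.4 (AT3G56825), at values under 3, had 0.96 and 0.80 (adjusted p of 0.00074 and 0.00427). This makes 2 lower and 2 higher of 13 (15.4% each), beside 14.5% and 17.2% over all rows. U2.4 was not called with quantile normalization (0.44, adjusted p = 0.102). Of 68 nucleolar RNA rows 9 were lower (13.2%) and 5 higher (7.35%), beside 14.5% and 17.2% over all rows. Among the 35 brighter ones 9 were lower (25.7%) and 4 higher (11.4%), beside 21.0% and 13.9% of brighter rows. The 5 higher calls became 2 without monosomal replicate 2 and 1 without total replicate 1. AT5G66564 had 1.91, 1.91 and 2.01 against 6.84, 6.64 and 6.35 (difference −4.67, SE 0.53, adjusted p = 4.34e-06). AT3G47347, AT3G58196 and AT3G01316 had −2.90, −2.22 and −2.21 (adjusted p of 1.35e-05, 0.000976 and 0.0011).

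Transfer RNA rows were higher in 14 (23%) and lower in 11 (18%) of 61, beside 17.2% and 14.5% over all rows. Of the 61, 9 rows share their values with another row, 8 of them among the 18 brighter ones, so they are not independent. Of the 18 brighter ones 9 were lower (50%) and 3 higher (16.7%), beside 21.0% and 13.9% of brighter rows. The 3 lowest, AT2G07752, AT2G07746 and AT2G07757, with −4.13, −3.31 and −2.99, lie in the chromosome 2 stretch; AT3G11395, on chromosome 3, had −2.86 (adjusted p = 4.23e-05) and AT3G20885, with 4.04, 3.60 and 4.43 against 1.06, 2.34 and 1.43, was higher by 2.41 (SE 0.33, adjusted p = 3.5e-05). Long noncoding rows were higher in 39 and lower in 24 of 222, close to the background, and those lower became 15 without total replicate 2. AT3G22072, AT1G53801 and AT3G13061 had −2.06, −1.94 and −1.46, and AT1G07119 had 1.41 (adjusted p of 1.18e-05, 4.7e-05, 6.31e-05 and 0.000369). Other noncoding rows were higher in 33 (20%) and lower in 18 (10.9%) of 165, with 20 higher without total replicate 1. AT1G15405 had 7.41, 7.87 and 7.62 against 10.57, 10.49 and 10.49, without overlap (difference −2.89, SE 0.26, adjusted p = 2.17e-07). AT3G60176, AT1G64618 and AT5G40316 had −3.57, −2.66 and −2.28 (adjusted p of 4.57e-06, 7.04e-08 and 8.44e-07). How fully the labelling, a one-cycle kit for the 3′ end, covers RNAs without poly(A) tails was not tested.

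AT1G07920, an elongation factor gene also used as a reference, was called higher by 0.66 (adjusted p = 0.00318 by limma), as given above. Another 4 genes often used as references were not called on the deposited values. ACT7 (AT5G09810), an actin of growing tissue, had 8.59, 8.68 and 8.65 in monosomal and 8.70, 9.10 and 8.92 in total RNA, without overlap (difference −0.27, SE 0.17, adjusted p = 0.221). UBQ10 (AT4G05320), a polyubiquitin, had 10.19, 10.28 and 10.09 against 9.45, 9.998 and 9.55 (difference 0.52, SE 0.20, adjusted p = 0.0585). GAPC1 (AT3G04120), of glycolysis, and TUB2 (AT5G62690), a tubulin, had 0.46 and −0.27 (adjusted p of 0.0681 and 0.444). UBQ10 was called higher without total replicate 2, with 0.69 (adjusted p = 0.0302). With each array centred on its median, UBQ10 and GAPC1 were called higher, with 0.69 and 0.63 (adjusted p of 0.0155 and 0.0173). Both were also called with 75th percentile centring (adjusted p of 0.0216 and 0.0213) and with limma's trended, robust variance (adjusted p of 0.0122 and 0.0138).

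The same contrast in dry seeds shares no array with that of seedlings, and the test of the difference asked whether the fractions part in another way once seedlings translate. It called 2580 rows (9.27%) more positive and 2740 (9.85%) more negative in seedlings. RALF23 had a difference of 0.03 in dry seeds (stage difference 1.99, adjusted p = 0.00179). Its dry means were 1.97 in monosomal and 1.93 in total RNA, in the faint range, where little difference could show. AT2G11778 had 0.21 in dry seeds (stage difference −6.22, adjusted p = 2.72e-09), with means of 1.73 and 1.52 there, so that the row was faint in both dry fractions. Of the 37 short secreted peptides 5 were more positive in seedlings and 1 more negative, and their median in dry seeds was 0.02.

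Several other groups also had a difference between the fractions in dry seeds. The 40S and 60S lists had dry seed medians of 0.40 and 0.32, beside 0.35 and 0.23 in seedlings, and 3 and 6 of their members were more positive, 6 and 20 more negative in seedlings. Mitochondria-encoded rows had a dry median of −1.09, beside −1.56 in seedlings, with 35 of 92 more negative and 21 more positive in seedlings, so they too did not move as one. Very large proteins had a dry median of −0.84, beside −0.42 in seedlings, with 6 of 24 more positive and 2 more negative in seedlings. The Aux/IAA list had a dry median of 0.13 beside −0.25 in seedlings, with 7 of 23 more negative and 0 more positive by limma. Its named lower members had low values in dry seeds, where little difference could show. Dry monosomal and total means were 2.41 and 2.13 for ATAUX2-11, 2.66 and 2.46 for SHY2, and 1.83 and 1.79 for PAP2. The order by gene span was also present in dry seeds, for the same protein-coding genes that were brighter on the seedling arrays. Their dry median ran from 0.21 at spans under 1000 bases to −0.54 at 6000 bases and over, beside 0.18 and −0.36 in seedlings. The noncoding row AT1G15405 had −2.67 in dry seeds beside −2.89 in seedlings (stage difference −0.22, adjusted p = 0.706), and U1.5 had −1.93 beside −2.44 (adjusted p = 0.536).

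**Figure D5:**
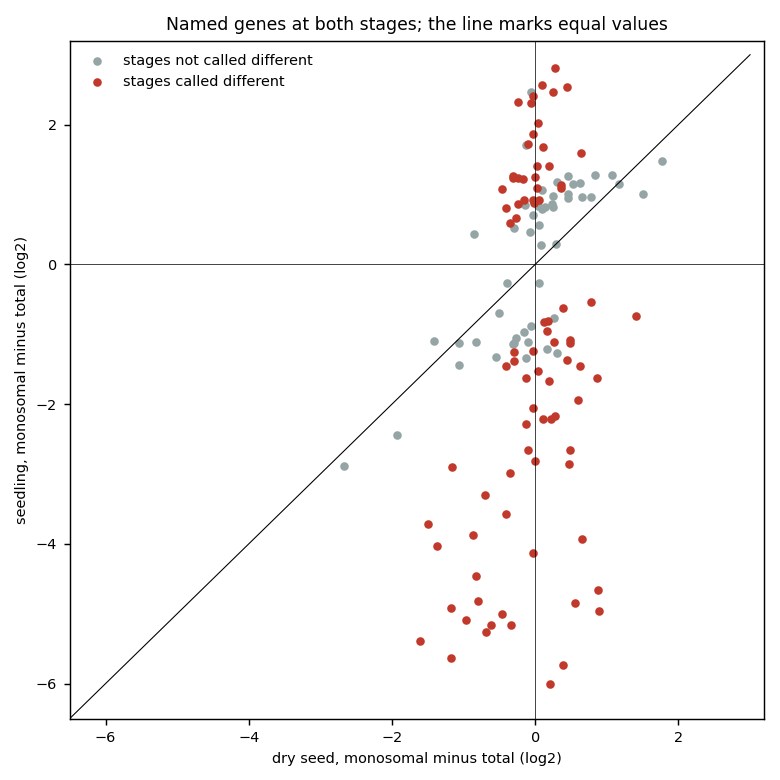
Log2 difference, monosomal minus total RNA, of the 134 named rows in dry seeds (x axis) and seedlings (y axis), red where the test of the stage difference passed (84 rows); the line marks equal values. Seedling differences reach −6.01 and 2.80, while dry seed differences of the red rows run from −1.60 to 1.41.

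Polysomal RNA, with several ribosomes per message, was set directly against monosomal RNA of seedlings. The 2 comparisons share the monosomal arrays, so their values stand side by side without a test of their relation. Polysomal RNA was higher in 3047 rows (10.9%) and lower in 2274 (8.17%). Of the 40S list 30 were lower and 1 higher in polysomal RNA, and of the 60S list 29 were lower and 3 higher. AT3G44010 averaged 9.89 in polysomal and AT3G56020 8.86, with differences of −1.19 and −1.07 (adjusted p of 0.000281 and 0.00101). Of the short secreted peptides 17 of 37 were lower and 0 higher in polysomal RNA, with a median of −0.73, and of the small mitochondrial proteins 12 of 26 were lower and 0 higher. MT2B averaged 8.86 (difference −1.02, adjusted p = 0.00113).

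Large proteins and division genes stood on the other side. Of the very large proteins 10 of 24 were higher in polysomal RNA and 0 lower, with a median of 0.68, and of the 19 cell division genes 8 were higher and 0 lower. SYP111 averaged 6.92 in polysomal RNA, 2.23 above monosomal RNA (adjusted p = 1.78e-05), and EFS 5.52, 1.77 above it (adjusted p = 4.5e-05). ATAUX2-11 and SHY2 averaged 6.04 and 4.99, 1.83 and 1.41 above it (adjusted p of 0.000528 and 0.00108). By gene span the median of polysomal minus monosomal ran from −0.49 under 1000 bases to 0.72 at 6000 bases and over, among brighter genes. Mitochondria-encoded rows had a median difference, polysomal minus monosomal, of 0.03, with 8 of 92 higher and 7 lower. AT2G11778 averaged 1.41 and AT4G08370 1.70 in polysomal RNA, with differences of −0.09 and −0.13 (adjusted p of 0.808 and 0.856). TAS3 averaged 5.04 (difference −0.45, adjusted p = 0.15), and AT5G04080 2.94 (difference −2.43, adjusted p = 4.31e-06), so that among seedling fractions the last was high with single ribosomes alone.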

How the data were processed

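The authors deposited log2 intensities for each gene row, made with RMA per the submitters' processing notes; its version and the probe assignment are not given in the sources used here. The log2 values were used as deposited. Group means of all 18 arrays were fitted with limma 3.58.1 in R 4.3.3 (12 residual degrees of freedom), and p-values were adjusted by Benjamini-Hochberg over 27827 rows and called under 0.05. The stage difference is the interaction contrast of fraction and stage. Gene types, symbols and spans came from the RefSeq gene table, which matched 27241 rows; 586 did not match, 107 of them organelle rows. Of 671 list members 669 were measured.

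The members and lists were chosen with earlier results of these data known. Named rows were those called without overlap between fractions: the 6 largest differences each way over all rows and over protein-coding rows whose mean over the 6 arrays lay above the median row, up to 4 largest per list, and 8 fixed genes. Of identical rows the first by locus was named, and 2 rows of this rule are not reported here. Same-numbered monosomal and total arrays deviated together with r of only 0.03, 0.02 and 0.01, so the numbers were not treated as pairs. Arrays are replicate bulks, and 3 per group limits the precision. In simulated data for seedling monosomal against total RNA, over 27827 rows, 1.49% of added differences of 0.5 were recovered, 35.8% of 1 and 86.4% of 2. The simulation changed only 67, 67 and 66 rows of these sizes, far fewer than the 4790 and 4048 rows called in the data. With so few changed rows the adjusted p is a stricter cutoff, so these shares do not give the recovery in the data.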

Additional observations from a re-analysis of the deposited data

Results flagged for a closer look

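Set apart here are named rows whose difference between monosomal and total RNA itself differed between seedlings and dry seeds, by limma's interaction contrast with adjusted p under 0.05 over all rows. This held for 84 of 134 named rows, 31 more positive and 53 more negative in seedlings, beside 9.27% and 9.85% over all rows; the named rows were chosen on the seedling difference, so their share is not evidence. Values below are seedling minus dry seed differences on the log2 scale. Some rows were faint in both dry fractions, where little difference could show. Among them were RALF23, CBF1 (dry monosomal and total means of 1.96 and 1.96) and WOX5 (1.72 and 1.90).

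Among ribosomal protein and translation factor genes, AT4G27130 by 1.22, AT5G18380 by 1.07 and AT1G07920 by 0.93 were more positive in seedlings. Among ribosomal protein and translation factor genes, AT1G23410 by −2.49, AT1G76810 by −1.81, AT3G13580 by −1.20 and EIF2 ALPHA by −0.97 were more negative in seedlings. Among genes of secreted peptides, metallothioneins, membrane peptides and small mitochondrial proteins, RALF23 by 1.99, AGP41 by 1.57, PSK4 by 1.54 and MT2B by 0.96 were more positive in seedlings. Among genes of secreted peptides, metallothioneins, membrane peptides and small mitochondrial proteins, AT5G61310 by −2.15 and RCI2A by −1.32 were more negative in seedlings. Among genes of large proteins, histones, cell division, splicing and upstream reading frames, CDC20.1 by 1.54, VTC2 by 1.07, HB-1 by 0.95, SCL33 by 0.87, RAT5 by 0.77 and AT5G59690 by 0.74 were more positive in seedlings. Among genes of large proteins, histones, cell division, splicing and upstream reading frames, HIS4 by −1.57, PCNA2 by −1.36, SYP111 by −1.09, EFS by −1.05 and RS31 by −0.98 were more negative in seedlings. Among hormone, stress and heat shock genes, CBF1 by 1.24, HSC70-1 by 0.95 and KIN2 by 0.90 were more positive in seedlings. Among hormone, stress and heat shock genes, ATAUX2-11 by −2.44, SHY2 by −1.86, AT1G53540 by −1.60, PAP2 by −1.57, WRKY33 by −1.50 and AT1G54050 by −1.01 were more negative in seedlings. Among photosynthesis, root, membrane and wall genes, TIP2;3 by 1.91, EXPA18 by 1.48, WOX5 by 1.39 and EXPA7 by 1.09 were more positive in seedlings. Among photosynthesis, root, membrane and wall genes, PRK by −1.11 and ATPD by −0.95 were more negative in seedlings. Among mitochondria-encoded rows and pseudogenes, AT2G07664 by −4.59, ATMG00820 by −4.58, ATMG00860 by −4.55, AT2G07677 by −4.46, ATMG00880 by −4.12, AT2G07682 by −4.01, ATMG01250 by −3.78 and AT2G07809 by −3.73 were more negative in seedlings. In the same group AT2G07686 by −3.63, AT2G07683 by −3.01, AT2G07813 by −2.67 and AT2G07697 by −2.22 were more negative in seedlings. Among noncoding rows, MIR395b by 2.36, MIR159a by 1.82, TAS3 by 1.57, AT1G07119 by 1.38 and U2.4 by 1.20 were more positive in seedlings. Among noncoding rows, AT5G66564 by −5.54, AT2G07752 by −4.10, AT3G11395 by −3.33, AT3G60176 by −3.16, MIR401 by −3.13, MIR844 by −2.81, AT2G07757 by −2.64 and AT2G07746 by −2.61 were more negative in seedlings. In the same group AT1G64618 by −2.57, AT1G53801 by −2.54, AT3G58196 by −2.44, AT3G01316 by −2.32, AT5G40316 by −2.14, AT3G13061 by −2.08, AT3G22072 by −2.03 and AT3G47347 by −1.73 were more negative in seedlings. Among other rows with the largest differences, AT4G22217 by 2.56, AT5G49560 by 2.53, AT5G04080 by 2.47, AT3G20885 by 2.44, AT5G37940 by 2.22 and AT3G50850 by 2.10 were more positive in seedlings. Among other rows with the largest differences, AT2G11778 by −6.22, AT4G08370 by −6.12, AT1G34910 by −5.86, AT2G11570 by −5.41, AT2G01023 by −4.83 and AT4G09649 by −4.55 were more negative in seedlings.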

How the results depend on the processing

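Of 127 named rows that were called, 104 kept their call in every alternative other than the stricter thresholds and 23 lost it in at least 1. Of 7 that were not called, 3 gained a call in at least 1, and no named row changed sign. The 4790 higher and 4048 lower rows became 2175 and 2501 with adjusted p under 0.01, and 1377 and 2016 when a 2-fold difference was also required. They were 3375 to 4085 and 3298 to 3775 when 1 array was left out, and 4696 and 4036 with the replicate block. Centring each array on its median moved the median of all rows from 0.11 to 0.28 and gave 7759 higher and 3026 lower, so that 71.9% of calls were higher in place of 54.2%. The 75th percentile gave a median of 0.25, with 6945 and 3163 (68.7%). Leaving out the 6957 rows of lowest mean gave 3117 higher and 3744 lower. For the stage difference, the more positive and more negative counts were 726 and 1326 with adjusted p under 0.01, and the positive ones 4034 under median centring and 1719 with the arrays of the comparison alone. Rows higher in polysomal than monosomal RNA were 1510 with adjusted p under 0.01, 1195 with 2-fold, 1907 under the 75th percentile and 1432 with the arrays of the comparison alone. Those lower were 805, 685, 5289 and 867, and 1504 with array weights; they were 1365 to 2111 with 1 array left out, the lowest without polysomal replicate 1 (1365) or 2 (1422).

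Some list medians changed sign, most of them near 0. That of upstream reading frame genes was 0.15 and 0.12 under median and 75th percentile centring, 0.06 with cyclic loess, 0.12 with quantile normalization, and 0.00, 0.07, 0.02 and 0.03 without monosomal replicate 2 or 3 or total replicate 2 or 3, with −0.06 as the lowest of such values. That of membrane and wall genes was −0.01, −0.07, −0.08 and −0.07 without monosomal replicate 1 or 2 or total replicate 2 or 3. For cell division it was 0.05 and 0.02 under the centrings, for nucleolar RNAs 0.07 and 0.04, and −0.20 to 0.09 with 1 array left out (0.09 without total replicate 3). For transfer RNAs it was −0.09 with loess, −0.07 with quantile normalization, −0.41 without the rows of lowest mean and −0.01 with array weights. Without the rows of lowest mean rapid stress genes had −0.02 in place of 0.19 and small nuclear RNAs −0.13 in place of 0.34, and photosynthesis genes had 0.00 with quantile normalization. Genes of 2000 to under 3000 bases had 0.10, 0.07, 0.04 and 0.04 under the centrings, loess and quantile normalization, and those of 3000 to under 4000 bases 0.03 under median centring. The cause was not tested. Protein length was not run, since gene span, chosen after seeing the data, stood in for it, as did the brighter rows, symbol families and rows at least 8-fold lower. With 3 arrays per group, small differences of faint rows were beyond the precision.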

Other observations

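Genes were also grouped by the stem of their symbol, within the brighter rows, whose mean lay above the median row, and for stems of at least 10 rows, after the values were seen and with no test. Arabinogalactan proteins (AGP, partly the same genes as the secreted peptides) had 8 of 21 higher and 1 lower in monosomal RNA, expansins (EXPA) 4 of 16 higher and 1 lower, and autophagy genes (ATG) 6 of 17 higher and 3 lower, beside 13.9% higher and 21.0% lower over all such rows. The fasciclin-like arabinogalactan proteins (FLA) went the other way, with 0 of 13 higher and 4 lower, and a median of −0.47. Of calcium-dependent protein kinases (CPK) 7 of 13 were lower and 0 higher by limma, of protein disulfide isomerase-like genes (PDIL) 5 of 10 lower and 0 higher, and of PTAC genes, of the plastid transcription machinery, 6 of 14 lower and 0 higher. UDP-glycosyltransferases (UGT) had 14 of 34 lower and 2 higher, beta-glucosidases (BGLU) 7 of 14 lower and 3 higher, and EMB genes, named for embryo-defective mutants, 35 of 126 lower and 14 higher.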
